A study of Arabidopsis thaliana with 3 samples.

Results

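Line 41 and line 45 are Arabidopsis thaliana plants that carry the same chimeric repressor gene, and the question addressed here is which named genes stood at different levels in their rosette leaves. The comparison takes the deposited log2 value of line 41 minus that of line 45, feature by feature, where a feature is a spot or probe on the array. Features were kept where their mean over the 3 arrays reached the 40th percentile of all feature means, a log2 level of 5.64, which left 17271 of 28785. With the brightest feature standing for each gene, 16905 remained, and 9738 of them were named genes. Of these named genes, 37 lay at least 2-fold apart between the lines.

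The study measured total RNA of rosette leaves from plants aged 2 weeks, all of the Col-0 accession, on 3 one-colour arrays. Line 41 and line 45 (numbers of transgenic plants in the labels, called lines here) both express AtMYB23SRDX under the constitutive 35S promoter, and wild type carries no transgene. Each of these groups is 1 array. The title of the first sample speaks of plants and that of the second of a plant, and neither says how many were pooled or whether the numbers mark independent insertions. No difference below therefore has a replicate error, a test or a p-value, and a fold is the size of a difference between single arrays.

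MYB23 is a MYB transcription factor that acts with its relative GLABROUS1 in starting and branching leaf trichomes. SRDX is a short repression domain of the EAR type, and a transcription factor fused to it represses the genes it binds, often over the activity of its own family members. Under a promoter active in nearly all cells the strength of such a repressor usually depends on where the transgene inserted and on how strongly it is expressed, so plants transformed with 1 construct are commonly compared with each other. MYB23 itself was paired with 0 features, so the amount of transgene in the lines was not measured here.

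The lines were close to each other over most of the array. The difference between line 41 and line 45 had a median of 0.00 on the log2 scale and a robust SD of 0.27 across the 16905 features, with the 1st percentile at -0.70 and the 99th at 0.78. The robust SD hardly varied with brightness, at 0.25 to 0.30 over 10 classes of mean signal. The median value was 5.89 in line 41, 5.91 in line 45 and 5.96 in wild type, and the 99th percentile was 10.63 in line 41, 10.54 in line 45 and 9.62 in wild type. For scale, 908 named genes (9.32%) were at least 2-fold higher in line 41 than in wild type and 777 (7.98%) at least 2-fold higher in line 45 than in wild type. At least 2-fold lower than wild type were 343 (3.52%) in line 41 and 227 (2.33%) in line 45. Both of those comparisons share the single wild-type array. All 5 measured genes of a reference list also stood above wild type in both lines. They ranged from PEX4 (1.21 above in line 41 and 1.39 in line 45) to GAPC2 (4.62 and 4.04). Every distance from wild type given below carries this limit.

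The leaf label was checked against marker genes. RCA, the Rubisco activase of the leaf and the 1 leaf marker of 14 named on the array, was very bright at 14.13 in line 41, 13.75 in line 45 and 11.90 in wild type. The root hair expansin gene EXP7 (4.96 in line 41, 5.12 in line 45 and 5.37 in wild type) and the pollen actin gene ACT12 (4.64, 4.55 and 4.87 in the same order) were both under the level of the dim filter. FAMA, a regulator of guard cells, stood at 6.82 in line 41, 6.89 in line 45 and 7.31 in wild type. Markers of seeds and of cell division were not named on the array, and the meristem gene CLV3 was under the filter with 5.46, 5.45 and 5.79. The 1 flower marker of 9 named on the array, UFO, passed the filter. It had 5.57 in line 41, 6.97 in line 45 and 6.53 in wild type, so not every marker from outside the leaf was dim. In leaf pieces of mixed cells, fewer cells of a type and less RNA per cell cannot be told apart.

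Genes at least 2-fold apart were few, and more of them were higher in line 41. Among named genes 23 (0.236% of 9738) were at least 2-fold higher in line 41 and 14 (0.144%) at least 2-fold higher in line 45. Over all 16905 features, with only the brightest for each gene, the counts were 57 (0.337%) and 26 (0.154%). The 2-fold rule chose these genes, so nothing is read from their number against those shares. Less bright features of a gene are outside these counts. Such features differed by 1.53 in AT1G05135, 1.09 in AT2G30600, 1.07 in AT1G19000 and 1.07 in AT4G36530. The brightest features of these genes differed by 0.27, 0.90, 0.35 and 0.15, so they are not among the 37. Near the limit the order is fine-grained: NET2C, EXPA8 and AT4G19860 lay just inside it with differences of 1.0 to 1.01, while UGT88A1, AT5G66590 and CKS lay just outside with 0.99, 0.98 and 0.98. On the side of line 45, AT4G39750, AT1G06930 and AT3G44950 lay just inside at -1.02 to -1.03, and AT2G43540, AT2G44860 and AT4G15765 just outside at -0.98, -0.97 and -0.97.

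**Figure D1:**
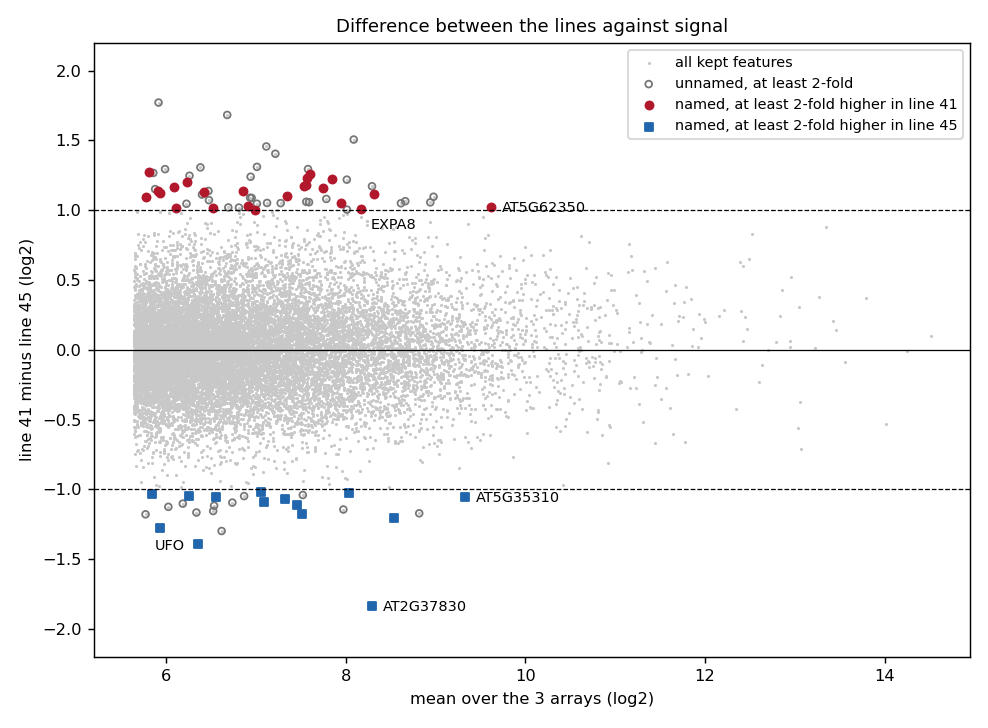
The log2 difference of line 41 minus line 45 is plotted against the mean log2 value over the 3 arrays for 16905 features, with named genes at least 2-fold apart filled and unnamed features at least 2-fold apart open, and dashed lines at the 2-fold limits. The cloud keeps about the same width at all brightness levels, 57 features lie above the upper limit and 26 below the lower one, and AT2G37830 lies farthest from 0.

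Of the 23 named genes higher in line 41, 7 have a gene symbol in the RefSeq table, and they include proteins of the chloroplast, the vacuolar membrane and the cell wall. TAPX (AT1G77490), the ascorbate peroxidase of the thylakoid membrane that removes hydrogen peroxide made in photosynthesis, had a value of 8.89 in line 41, 7.71 in line 45 and 6.09 in wild type. Line 41 was thus 2.26-fold above line 45, and both lines stood above wild type. CLPP4 (AT5G45390), a subunit of the Clp protease of the plastid stroma, had 9.36 in line 41, 8.31 in line 45 and 6.19 in wild type, a difference between the lines of 2.08-fold. In these plastid genes the order was line 41, line 45, wild type from high to low.

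TMT2 (AT4G35300), a sugar transporter that loads glucose and sucrose into the vacuole, had 7.54 in line 41, 6.41 in line 45 and 5.33 in wild type (2.19-fold between the lines). Its features disagree, since a second one past the filter had 6.37 in line 41, 6.20 in line 45 and 4.89 in wild type, a difference of 0.17. The mean over both features of TMT2 differed by 0.65, under the 2-fold limit. The related TMT1 differed by 0.58 and TMT3 by -0.11.

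UGT72E1 (AT3G50740), a glucosyltransferase that attaches glucose to phenylpropanoid aldehydes, had 8.57 in line 41, 7.41 in line 45 and 7.25 in wild type. Line 45 was close to wild type here and line 41 was 2.24-fold above line 45. Its relative UGT72E2, which glucosylates monolignols, lay on the other side with 5.92 in line 41, 6.64 in line 45 and 6.67 in wild type, a difference of -0.72. The third member, UGT72E3, differed by -0.13.

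EXPA8 (AT2G40610), an alpha-expansin that loosens growing cell walls, had 8.96 in line 41, 7.95 in line 45 and 7.62 in wild type, 2.01-fold between the lines. The other measured alpha-expansin genes EXPA15, EXPA16, EXPA20 and EXPA4 differed by -0.21 to -0.02. SNZ (AT2G39250), which encodes a repressor of flowering of the APETALA2 family, had 6.82 in line 41, 5.68 in line 45 and 5.26 in wild type, or 2.2-fold. NET2C (AT5G10500), an actin-binding protein of the Networked family, had 7.28 in line 41, 6.28 in line 45 and 7.41 in wild type. It is one of the few genes whose line 41 value lay next to wild type while line 45 was lower.

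The other 16 named genes higher in line 41 carry a locus identifier only in the tables used here. AT5G35970 had 8.56 in line 41, 7.30 in line 45 and 6.95 in wild type (2.40-fold between the lines). AT2G04039 had 8.77, 7.54 and 6.41 in that order (2.35-fold), and its second feature also was higher in line 41, by 0.84. AT4G33666 had 8.72 in line 41, 7.49 in line 45 and 7.33 in wild type (2.34-fold). All of these were well above the dim level in each array.

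Several of the brightest were high in both lines against wild type. AT1G66100 had 10.13 in line 41, 9.02 in line 45 and 5.78 in wild type (2.17-fold between the lines). AT5G62350 had 10.86, 9.84 and 8.15 (2.03-fold), and AT3G42628 had 8.69, 7.59 and 5.74 (2.14-fold). AT3G13410 had 8.65, 7.48 and 6.47 (2.25-fold). Line 45 thus lay between wild type and line 41 in each of these.

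Less bright genes followed the same order. AT1G16180 had 8.06 in line 41, 6.92 in line 45 and 5.61 in wild type (2.2-fold). AT5G51510 had 6.88, 5.72 and 5.66 (2.24-fold), and AT3G01060 had 6.85, 5.73 and 5.21 (2.17-fold). AT4G19860 had 7.41, 6.39 and 5.78 (2.02-fold), and AT4G09890 had 6.99, 5.98 and 5.36 (2.02-fold). In AT5G51510 line 45 was next to wild type, and in the other 4 it stood above wild type by 0.51 to 1.32. Wild type was below the dim level in AT1G16180, AT3G01060 and AT4G09890, as in TMT2 and SNZ above. Distances from wild type are less certain in these genes.

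In the remaining genes wild type was not the lowest value. AT3G15650 had 6.40 in line 41, 5.13 in line 45 and 5.90 in wild type, AT2G28230 had 6.25, 5.15 and 5.93, and AT2G38870 had 7.33, 6.30 and 7.09. AT3G27540 had 6.63 in line 41, 5.43 in line 45 and 6.64 in wild type. In AT3G15650, AT2G28230 and AT3G27540 line 45 was below the dim level, so the measured folds of 2.41, 2.14 and 2.3 shrink to at least 1.69, 1.52 and 1.98 when line 45 is raised to that level. AT2G38870 was 2.04-fold apart with every value above it.

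Over the 23 genes, wild type lay below both lines in 18, between them in 3 and above both in 2. Across all 16905 features wild type lay below both lines in 39.1%, between them in 16.5% and above both in 44.4%. The median distance from wild type of the 23 genes was 1.62 in line 41 and 0.51 in line 45, with 18 at least 2-fold from wild type in line 41 and 11 in line 45. These counts and medians are a description of genes that were chosen by a high line 41 value. Nothing is therefore read from the 18 against the 39.1% of all features.

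**Figure D2:**
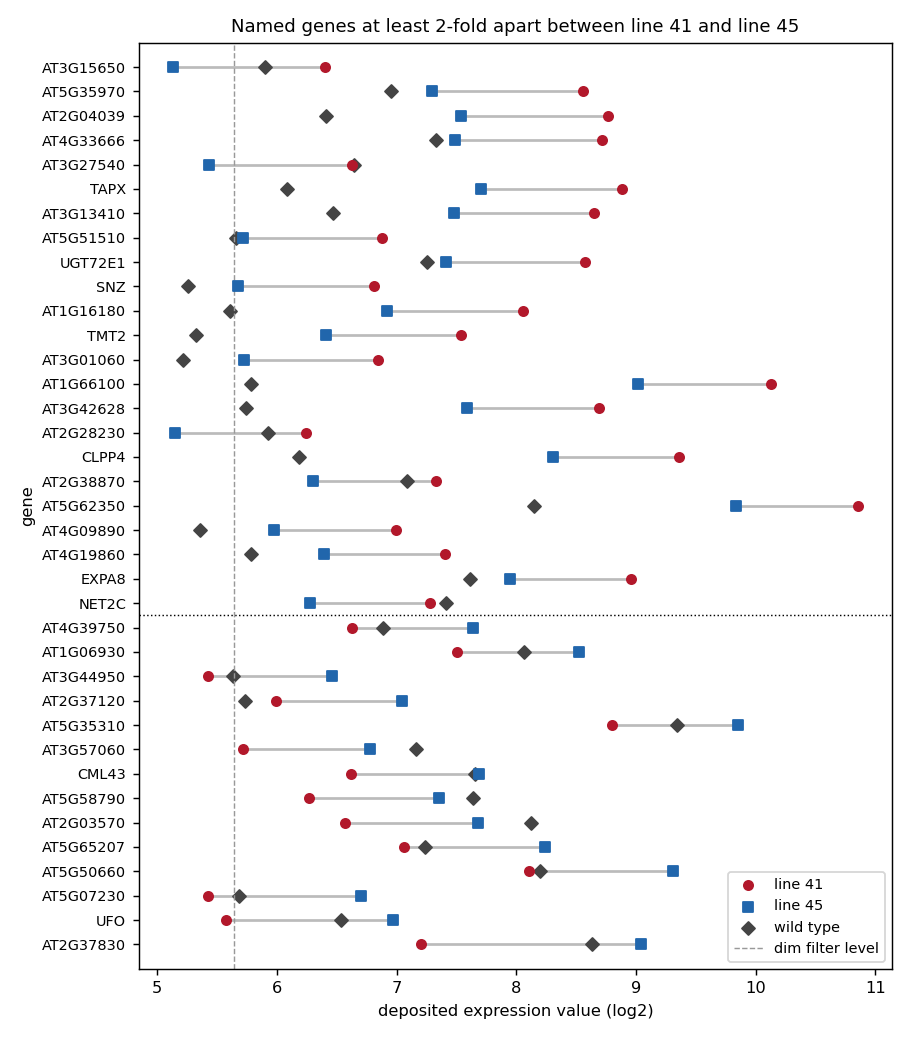
The deposited log2 values of line 41, line 45 and wild type are shown for the 37 named genes at least 2-fold apart, with a bar joining the lines and a dashed line at the dim filter level of 5.64. Wild type lies below both lines in 18 of the 23 genes higher in line 41 and between the lines in 10 of the 14 genes higher in line 45.

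The 14 genes higher in line 45 showed another arrangement around wild type, and 2 of them have a symbol. UFO (AT1G30950), an F-box protein that works with LEAFY in setting petal and stamen identity in flowers, had 5.57 in line 41, 6.97 in line 45 and 6.53 in wild type. Line 45 was 2.63-fold above line 41, or at least 2.51-fold with line 41 raised to the dim level. UFO is a flower gene and also the only flower marker of 9 named on the array, and in these leaves it passed the dim level in line 45 and wild type but not in line 41. The other measured flower-list genes FD, AGL24 and FPA differed by no more than 0.37.

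CML43 (AT5G44460), a calmodulin-like calcium sensor, had 6.62 in line 41, 7.69 in line 45 and 7.66 in wild type, 2.09-fold higher in line 45 than in line 41. Line 45 was at the wild-type level and line 41 below it. The related CML30, CML37 and CML38 differed by 0.11, -0.28 and -0.18.

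AT2G37830 had the greatest difference of all 16905 features, with 7.20 in line 41, 9.04 in line 45 and 8.64 in wild type, so that line 45 was 3.57-fold above line 41. This locus and AT5G50660 are named by the platform's annotation alone, since the RefSeq table used here does not hold them. AT5G50660 had 8.11 in line 41, 9.31 in line 45 and 8.2 in wild type (2.31-fold between the lines). In the first it was line 41 that stood apart from wild type, in the second it was line 45.

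Line 41 was likewise the array that stood below the rest in 3 further loci. AT5G58790 had 6.27 in line 41, 7.36 in line 45 and 7.64 in wild type (-1.09), AT3G57060 had 5.72, 6.78 and 7.16 (-1.06), and AT2G03570 had 6.57, 7.68 and 8.12 (-1.11). In all 3 the wild-type value was the highest. AT1G06930, with 7.50, 8.53 and 8.07 (-1.03), and the pseudogene AT5G35310, with 8.80, 9.85 and 9.34 (-1.05), had wild type about midway between the lines.

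Line 45 stood above the rest in the other genes. AT5G65207 had 7.06 in line 41, 8.24 in line 45 and 7.24 in wild type (-1.18). AT5G07230 had 5.43, 6.70 and 5.69 (-1.28), AT2G37120 had 5.99, 7.05 and 5.73 (-1.05), AT3G44950 had 5.43, 6.46 and 5.64 (-1.03), and AT4G39750 had 6.62, 7.64 and 6.89 (-1.02). In these 5 genes the values of line 41 and wild type were the nearest pair. Line 41 was below the dim level in AT5G07230 and AT3G44950, whose folds become at least 2.09 and 1.76 with that side raised.

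Over the 14 genes wild type lay between the lines in 10, above both in 3 and below both in 1. A wide gap between the lines was the rule that chose them, so nothing is read from the 10 against the 16.5% of all features. The median distance of the 14 genes from wild type was -0.55 in line 41 and 0.49 in line 45. At least 2-fold from wild type were 5 of them in line 41 and 4 in line 45. Raising dim sides to the filter level left 33 of the 37 genes at least 2-fold apart, 20 of those higher in line 41 and 13 of those higher in line 45.

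A larger set of genes lay between 1.5-fold and 2-fold apart. At least 1.5-fold, the 2-fold genes included, were 258 named genes higher in line 41 (2.65% of 9738) and 218 higher in line 45 (2.24%). Over all features they were 561 (3.32% of 16905) and 378 (2.24%), or 939 (5.55%) together. Without the 2-fold genes the named genes were 235 and 204, of which 40 and 21 have a symbol. The lower line was under the dim level in 25 of the 235 and 42 of the 204, so those differences are less certain. CKS, AT4G15765, AT5G40050, THI2.1 and EMS1, named below, are among these. In the 235 genes wild type lay below both lines in 152, between them in 63 and above both in 20, while in the 204 genes the counts were 38, 100 and 66. The gap between the lines chose both sets, so nothing is read from these counts.

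The 12 greatest of this tier on the side of line 41 began with UGT88A1, a glucosyltransferase gene, with 6.99 in line 41, 6.0 in line 45 and 4.83 in wild type (0.99). Both other features of UGT88A1 differed the other way, the one past the filter by -0.34, so this gene is uncertain. ARFA1D, a small GTPase of vesicle formation, had 9.18, 8.23 and 7.11 (0.95), and its second feature differed by 0.60 in the same direction. CKS, which makes the activated sugar KDO for the pectin rhamnogalacturonan II, had 6.51, 5.53 and 6.07 (0.98). The others are AT5G66590, AT4G12980, AT5G48900, AT3G43650, AT2G46910, AT3G47295, AT4G26370, AT2G30600 and AT3G44450, with differences of 0.90 to 0.98. Among them AT3G47295 was far above wild type in both lines, with 9.13 in line 41, 8.2 in line 45 and 5.82 in wild type. A second feature of AT2G30600 differed by 1.09 in the same direction.

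On the side of line 45 the 12 greatest were AT2G43540, AT2G44860, AT4G15765, AT5G40050, AT5G29210, AT4G02140, AT14A, AT2G27950, AT1G53620, AT2G13760, AT1G10000 and AT5G36690, at -0.98 to -0.87. AT14A (AT3G28290), a protein with similarity to integrins, had 6.16 in line 41, 7.10 in line 45 and 6.53 in wild type. AT2G43540 had 7.99, 8.97 and 8.47. AT5G36690 had 7.58, 8.45 and 8.46, so that line 45 matched wild type.

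The genes with a symbol in this tier that follow were singled out after their values were seen, except members of the gene lists. SDH3-1, a membrane subunit of succinate dehydrogenase, had 9.63 in line 41, 8.74 in line 45 and 6.32 in wild type (0.89), and its near copy SDH3-2 had 8.76, 7.88 and 5.75 (0.88). These near copies can share signal on an array. The other measured succinate dehydrogenase genes, SDH2-1, SDH2-3, SDH1-1 and SDH2-2, differed by 0.09, 0.07, -0.06 and -0.38, and the median of the 6 was 0.08. SBE2.2, a starch branching enzyme, had 8.39, 7.50 and 5.79 (0.89), and SAMDC, the S-adenosylmethionine decarboxylase of polyamine synthesis, had 10.08, 9.27 and 6.96 (0.80).

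Endoglucanase genes of the GH9 family, which trim cellulose in growing walls, were grouped after their values were seen. Of 12 measured members 3 were at least 1.5-fold higher in line 41, a size rule that 2.65% of all named genes met, and 0 higher in line 45, and the family's median was 0.04. GH9B7 had 8.39 in line 41, 7.65 in line 45 and 5.93 in wild type (0.74). GH9C2 had 7.40, 6.66 and 4.86 (0.74), and GH9B13 had 9.15, 8.56 and 7.76 (0.59). All 3 were higher than wild type in both lines. On the other side were GH9B8 with -0.54, GH9B10 with -0.27 and GH9B17 with -0.25.

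Transcription factors of light and hormone responses were among them too. PIF7, a bHLH factor of shade-induced growth, had 6.98 in line 41, 6.27 in line 45 and 5.98 in wild type (0.71), and HAT2, a homeodomain factor induced by auxin, had 7.74, 7.01 and 6.33 (0.73). MYC4, a bHLH factor of jasmonate signalling, had 6.73, 6.07 and 7.22 (0.66), so that both lines lay below wild type. BZIP28, a membrane-bound factor of the endoplasmic reticulum stress response, differed by 0.59.

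**Figure D3:**
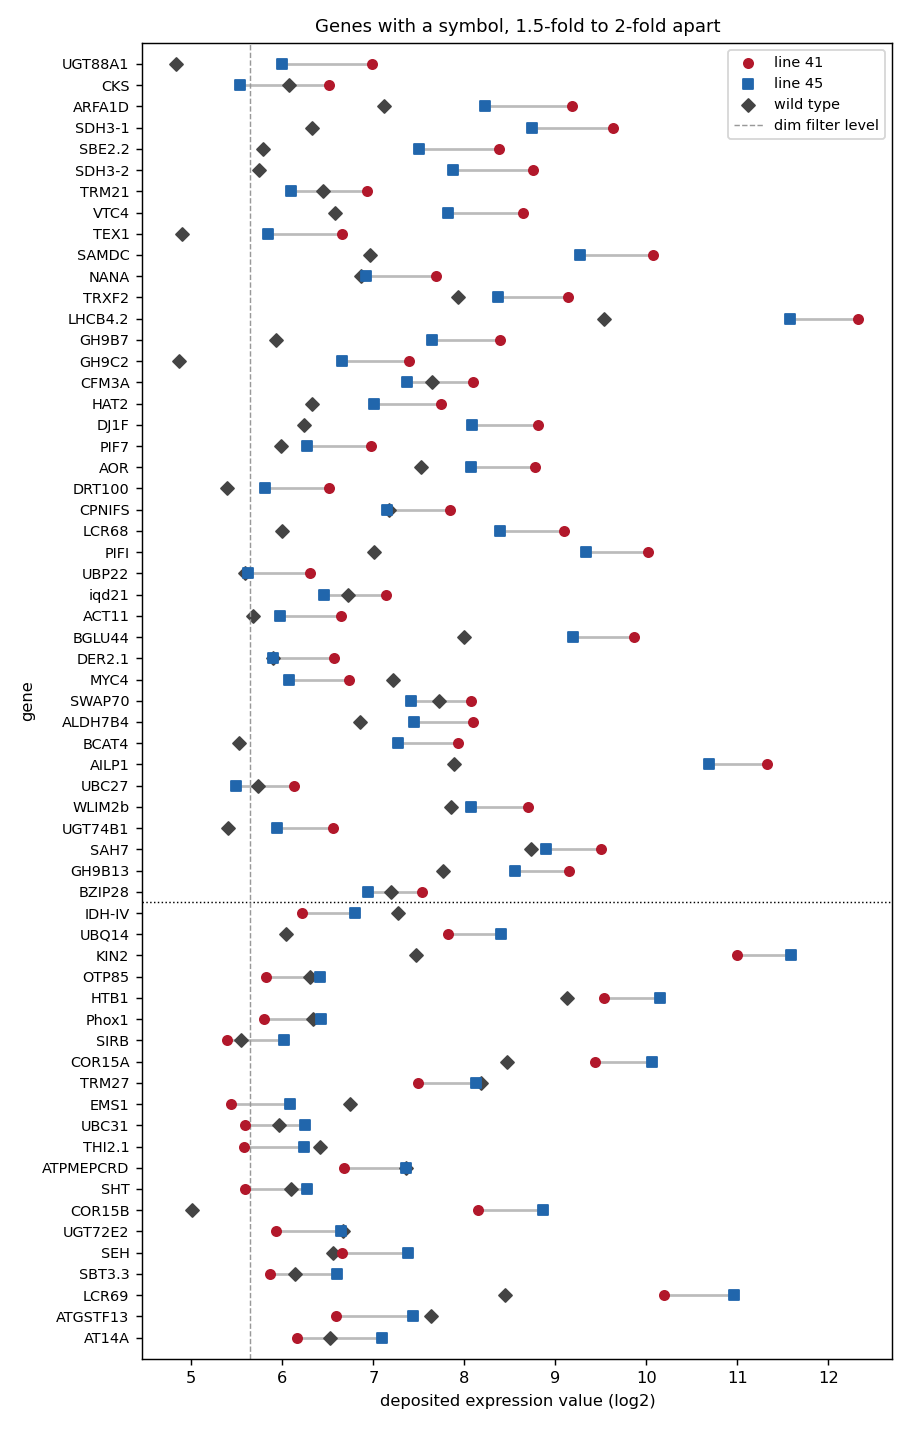
The deposited log2 values of line 41, line 45 and wild type are shown for the named genes with a symbol that lay 1.5-fold to 2-fold apart, 40 higher in line 41 above the dotted line and 21 higher in line 45 below it. LHCB4.2 and KIN2 are among the brightest, and wild type lies to the left of both lines in most of the upper genes.

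Lists of genes by pathway gave the members' differences together. The 26 lists held 1653 members, of which 234 were named on the array and 157 passed the filter. Of those 157 genes, 9 were at least 1.5-fold higher in line 41 and 7 at least 1.5-fold higher in line 45. Together they make 10.2%, beside 4.89% of all named genes. The lists were written with earlier results of these data known, so nothing is read from these shares. The median difference of all named genes was -0.016, and 47.5% of them were above 0. In most lists few members were named on the array, and the median of a list speaks only for those.

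Photosynthesis genes lay on the side of line 41, and so did most features far above wild type. All features whose mean over the lines was at least 2 above wild type had a median of 0.22, with 78.0% higher in line 41. Many of the photosynthesis genes below stood that far above wild type, and a difference from such features was not tested. The list of photosystem and antenna proteins had 8 measured members of 57, with a median of 0.32, or 0.18 with the loess trend removed. LHCB4.2, a minor antenna protein of photosystem II, had 12.33 in line 41, 11.58 in line 45 and 9.53 in wild type (0.75), and its second feature differed by 0.64. LHCB4.2 is the 1 member at least 1.5-fold apart. PSBY differed by 0.46, LHCB4.1 by 0.43, PSAE-1 by 0.37 and PSAN by 0.28, while PGRL1B, LHCB4.3 and LIL3:1 differed by -0.03, -0.19 and -0.23.

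All 4 measured members of the Calvin cycle and photorespiration list, of 38, were higher in line 41, with a median of 0.41 (0.25 after quantile normalization) and none at least 1.5-fold apart. PRK, the phosphoribulokinase, differed by 0.47, SBPASE, the sedoheptulose bisphosphatase, by 0.43, RCA by 0.38 and HPR, the hydroxypyruvate reductase of photorespiration, by 0.20. Chlorophyll and plastid pigment genes had a median of 0.15 over 9 measured members, 7 of them above 0, and one of 0.32 with the mean over each gene's features. Genes whose symbol or synonym names a plastid part were grouped after their values were seen. Of 23 measured 17 were above 0, with a median of 0.22. At least 1.5-fold higher in line 41 were 5, a size rule that 2.65% of all named genes met. Most of the 23 stood above wild type in both lines. All named genes 1 to 2 above wild type had a median of 0.17, and those at least 2 above it had 0.24, so the group's median was similar.

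Redox genes were on the same side. The list of oxidative stress and redox genes had 19 measured members, 14 above 0, with a median of 0.18. TAPX is its 2-fold member. VTC4, a phosphatase of ascorbate synthesis, had 8.65 in line 41, 7.82 in line 45 and 6.58 in wild type (0.82), and TRXF2, a plastid thioredoxin that switches on Calvin cycle enzymes in light, had 9.14, 8.37 and 7.93 (0.76). NTRC, the plastid thioredoxin reductase, differed by 0.53. PIFI, a chloroplast protein of chlororespiratory electron flow outside the lists, had 10.02, 9.34 and 7.01 (0.68).

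The cold, drought and abscisic acid list lay on the side of line 45, with a median of -0.56 over 6 measured members of 72. At least 1.5-fold higher in line 45 were 3 of them, a size rule that 2.24% of all named genes met. The 4 members below 0 are the related pairs COR15A with COR15B and KIN1 with KIN2. Without the dim filter the median was -0.315. COR15B, a chloroplast protein that guards membranes in freezing, had 8.15 in line 41, 8.86 in line 45 and 5.01 in wild type (-0.71). Its neighbour and relative COR15A had 9.44, 10.07 and 8.47 (-0.63), and the second feature of COR15A differed by -0.56. KIN2, a small hydrophilic protein made in cold and drought, had 10.99, 11.59 and 7.47 (-0.60). KIN1 differed by -0.53, while COR47 and STZ were on the other side with 0.14 and 0.23. The cold genes at least 1.5-fold higher in line 45 were above wild type in both lines, and KIN1 and KIN2 are near copies that can share signal.

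Flavonoid genes showed small differences with 1 sign: all 6 measured members of 44 were lower in line 41, by values between -0.42 and -0.15, with a median of -0.29 and none at least 1.5-fold apart. DFR, the dihydroflavonol reductase of anthocyanin synthesis, had 6.58 in line 41, 7.0 in line 45 and 7.35 in wild type. Phenylpropanoid genes had a median of -0.08, and the 1 member of 6 at least 1.5-fold apart was AT5G66390, listed as the lignin peroxidase PRX72, with 6.10 in line 41, 6.72 in line 45 and 7.14 in wild type (-0.61). The flavonoid median is about as large as the robust SD of all features.

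Glucosinolate genes had a median of 0.28 over 5 measured members, with 2 at least 1.5-fold higher in line 41. BCAT4, the aminotransferase that starts methionine chain elongation, had 7.93 in line 41, 7.28 in line 45 and 5.53 in wild type (0.65), and UGT74B1, which glucosylates the thiohydroximate, had 6.55, 5.95 and 5.41 (0.61). Jasmonate and wound genes had MYC4 on the side of line 41 and THI2.1, a thionin induced by jasmonate, on the side of line 45. THI2.1 had 5.58 in line 41, 6.24 in line 45 and 6.41 in wild type (-0.66).

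Trichome genes, the class for which MYB23 is best known, had 4 measured members of 36 and none at least 1.5-fold apart. GIS, a zinc finger factor of trichome initiation, differed by 0.03, SIM, an inhibitor of mitosis in trichomes, by -0.18, AN, which acts in trichome branching, by -0.32, and TRY, a small MYB inhibitor of trichome fate, by -0.38. The median was -0.25. Auxin genes had a median of -0.18 over 9 members and heat shock genes one of -0.23 over 3, with none at least 1.5-fold apart. Without the dim filter these medians were 0.01 and -0.04.

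Cell wall genes spread around 0 with a median of -0.03 over 27 measured members, and EXPA8 is the 1 member at least 1.5-fold apart. Starch and sugar genes, SBE2.2 among them, had a median of -0.02 over 7, gibberellin genes, EXPA8 again among them, one of -0.02 over 5 and clock genes one of 0.03 over 3. Cell cycle and chromatin genes had a median of 0.03 over 7, with HTB1, a histone H2B gene, at 9.54 in line 41, 10.15 in line 45 and 9.13 in wild type (-0.61). Reference genes had a median of 0.04 over 5, with GAPC2 the farthest at 0.58. All 5 reference genes stood above wild type in both lines. GAPC2 was 4.62 above it in line 41 and 4.04 in line 45, and PEX4 was 1.21 and 1.39 above it. The light signalling list had 2 of 56 members named on the array and the cytosolic ribosomal protein list 0 of 65, with 0 measured in either. Lists matched genes by symbol or synonym, so genes of these classes can be measured outside them, as PIF7 was.

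The remaining lists had medians between -0.12 and 0.26, with 0 members at least 1.5-fold apart. Salicylate and cuticle genes had -0.12 each over 3 members, while sulfur and nitrogen genes and those of cytokinin and related hormones had 0.19 each over 3. Iron and metal genes had 0.26 over 4. Without the dim filter the iron and metal median was 0.07.

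**Figure D4:**
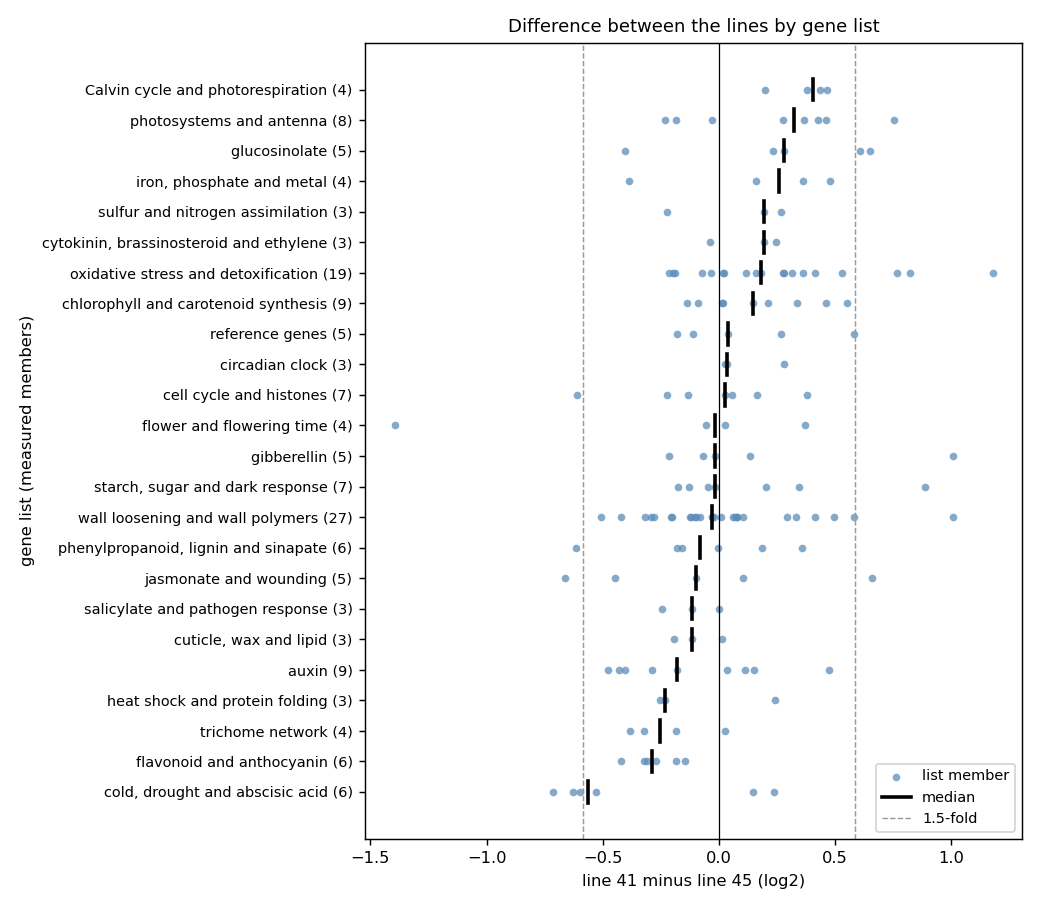
The log2 difference of line 41 minus line 45 is shown for each measured member of the 24 gene lists with 3 or more measured members, with a bar at the median of each list. The photosystem, Calvin cycle and glucosinolate lists have medians of 0.28 to 0.41, and the cold and flavonoid lists have medians of -0.56 and -0.29.

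The direction of the difference varied with how far both lines stood from wild type. In the 617 features whose mean over the lines was above wild type by a log2 distance of at least 2, the median difference was 0.22 and 78.0% were higher in line 41. In the 1328 features with a log2 distance of 1 to 2 above wild type the median was 0.17 and 72.4% were higher in line 41, and within 0.5 of wild type it was -0.03 with 45.7%. In the 400 features at least 2-fold below wild type the median was -0.10, and 34.5% were higher in line 41. At the median of these outer classes line 41 thus lay farther from wild type than line 45 on either side, by less than the robust SD of all features. KIN2 and COR15B, both far above wild type and higher in line 45, went the other way.

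At least 2-fold higher in line 41 were 22 of the 1328 features (1.66%) and 16 of the 617 (2.59%), and at least 2-fold higher in line 45 were 3 and 1. After quantile normalization the median of the class farthest above wild type was 0.17, and after removal of the trend of the difference with brightness it was 0.15. Values at the top of the range were also higher in line 41 than in line 45, and the part of that shift in the pattern was not tested.

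**Figure D5:**
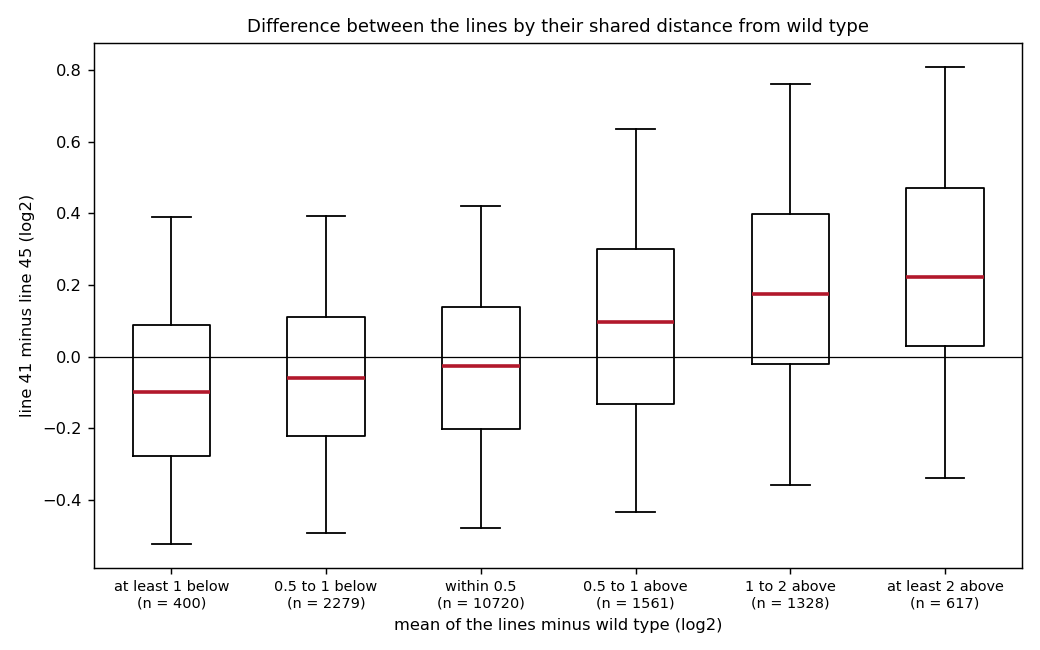
The log2 difference of line 41 minus line 45 is plotted by class of the distance of both lines' mean from wild type, with a red bar at the median, a box from the 25th to the 75th percentile and whiskers from the 5th to the 95th percentile of the features in each class. The median is -0.10 in the class farthest below wild type and 0.22 in the class farthest above it.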

How the data were processed

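Total RNA of rosette leaves was measured in 3 samples, 1 array for each of line 41, line 45 and wild type, and samples were grouped from their titles. The authors deposited 1 expression value per feature and array, read here as log2 because the values lie between 4.04 and 14.78. The labels name no log base, background correction or normalization, and another base would change every fold. The column medians lay within 0.1 of each other, so values were kept as deposited.

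Values under the 5th percentile of all values (4.68) were set to it, and features with a mean under the 40th percentile of feature means (5.64) were left out. No detection call was used, so a dim side was raised to that level where a fold is given as at least a value. Wild-type values were not raised to it. The platform's table named 17579 features by 1 gene and left 11206 unnamed, and the RefSeq table of TAIR10.1 held 17491 of the named ones. The RefSeq table served for symbols only, and no sequence is printed. Of several features the brightest stood for a gene.

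Differences are line 41 minus line 45, computed with pandas 2.3.3 and numpy 2.4.6 in Python 3.11.15, with loess from statsmodels 0.14.6. With 1 array per group, no test was made and a 2-fold size rule was used. The number of arrays limits the precision. Robust SD is the scaled median absolute deviation across features, which are not replicates. Named genes are all those at least 2-fold apart, the 12 greatest per direction from 1.5-fold to 2-fold, the 3 on either side of the limit, and up to 4 members of each list at least 1.5-fold apart. Members and gene lists were chosen with earlier results of these data known. Alternatives were quantile, median and 75th-percentile scaling, removal of a loess trend, no filter or the 60th percentile or the lines alone for the filter, no floor or the 20th percentile, and the mean over a gene's features.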

Additional observations from a re-analysis of the deposited data

Results flagged for a closer look

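In 13 of the 37 named genes at least 2-fold apart, line 41 and line 45 lay on opposite sides of the wild-type value, so that the sign of the distance from wild type depends on the line. Each group is 1 array and the difference was not tested. Both distances use the same wild-type array. Among all named genes wild type lay between the lines in 16.9%, and among all features in 16.5%. The 37 genes were chosen for a wide gap between the lines, and a wider gap leaves more room for the wild-type value inside it. Nothing is therefore read from the count of 13 against those shares.

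Line 41 was above and line 45 below wild type in 3 genes. AT3G15650 stood 0.50 above wild type in line 41 and had -0.77 in line 45, a difference of 1.27. AT2G28230 had 0.32 in line 41 and -0.78 in line 45 (1.1), and AT2G38870 had 0.24 and -0.79 (1.03).

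Line 41 was below and line 45 above wild type in 10 genes. The greatest was AT2G37830, with -1.43 in line 41 and 0.40 in line 45 against wild type, a difference of -1.84. UFO had -0.96 and 0.44 (-1.39), and CML43 had -1.04 and 0.03 (-1.07), so that line 45 was at the wild-type level. AT5G07230 had -0.26 and 1.02 (-1.28), AT5G50660 had -0.09 and 1.12 (-1.21), and AT5G65207 had -0.18 and 1.0 (-1.18). In these 3 genes line 45 carried most of the distance. AT5G35310 had -0.54 and 0.51 (-1.05), and AT1G06930 had -0.57 and 0.46 (-1.03). AT3G44950 had -0.21 and 0.83 (-1.03), and AT4G39750 had -0.27 and 0.75 (-1.02).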

How the results depend on the processing

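Counts at least 2-fold apart kept within 1.5 times of their value under every alternative but quantile normalization, where 34 features were higher in line 41, against 57 as deposited, and 15 named genes, against 23. The cause was not tested. That setting left 25 named genes 2-fold apart in either direction, all 25 among the 37. Without a dim filter there were 41, and with the filter at the 60th percentile 27. Of the 37 genes, 24 stayed at least 2-fold apart under every alternative that measured them, and 0 changed direction. The filters and floors leave the differences of these genes as they are, so they say nothing of stability. Quantile normalization moved them by up to 0.20, removal of the loess trend by up to 0.09 and both centrings by up to 0.02. The mean over features changed 2 genes, with TMT2 at 0.65. Among list medians, the glucosinolate list moved to 0.65 with the filter at the 60th percentile. Medians near 0 changed sign with the scaling: those of the flower, gibberellin and starch lists under median centring, that of the cell cycle list under quantile normalization, and that of the reference list under quantile normalization and loess. Without the dim filter the auxin (0.01), gibberellin (0.08), starch (0.04) and cell cycle (-0.03) medians changed sign, and the cold median was -0.315, heat shock -0.04 and iron and metal 0.07. The cell cycle median was -0.05 with the filter on the lines alone or the higher floor, and the jasmonate median was 0.00 with the filter at the 60th percentile and 0.02 with the mean over features. Over the scalings the photosystem median lay between 0.18 and 0.34 and the cold median between -0.62 and -0.54.

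No paired analysis was possible because each group holds 1 array, so leaving out an array was not an alternative either. The arrays give no replicate error, no detection call and no measure of the transgene. Wherever a line is near the dim level a fold is least certain.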

Other observations

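Some further genes with a symbol lay at least 1.5-fold apart. Among plant defensin-like genes, LCR68 had 9.09 in line 41, 8.40 in line 45 and 6.0 in wild type (0.69), while LCR69 had 10.19, 10.96 and 8.44 (-0.77). Both lines stood above wild type in both genes. SHT, a spermidine acyltransferase known from anthers, differed by -0.68, and EMS1, a receptor kinase of anther development, had 5.44 in line 41, 6.08 in line 45 and 6.75 in wild type (-0.64). ATGSTF13, a glutathione transferase, had 6.59, 7.44 and 7.63 (-0.85). UBQ14, a polyubiquitin gene, had 7.82, 8.41 and 6.04 (-0.59), and other features of it gave -0.16 and 0.24. These genes were picked after their values were seen.

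Features with no gene name held more of the 2-fold differences than named genes. Each named gene was represented by its brightest feature alone, while unnamed features could not be merged by gene, so the sets are unlike. Of the 7167 unnamed features 34 were at least 2-fold higher in line 41, up to 1.77, and 12 at least 2-fold higher in line 45, down to -1.30. Among the 9738 named genes these counts were 23 and 14, and 0.491% of all features were 2-fold apart in either direction. The robust SD was 0.29 in unnamed features and 0.27 in named genes. The gene pair COR15A and COR15B was 1 of 9 pairs of adjacent genes that were both at least 1.5-fold apart, and 7 of those pairs differed in the same direction. Of 333 measured neighbours of genes at least 1.5-fold apart, 18 (5.41%) were themselves that far apart, beside 4.89% of all named genes. A range between features was computed for 345 genes, and its median was 0.24.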
